A study of Mus musculus with 6 samples.

Results

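The genes described here are the ligands and receptors of the epidermal growth factor (EGF) and fibroblast growth factor (FGF) families, together with the feedback and target genes switched on when these receptors signal. They were chosen by symbol: every Fgf, Fgfr, Spry and Spred gene, the EGF family ligands Egf, Tgfa, Hbegf, Areg, Ereg, Btc and Nrg1 to Nrg4, the receptors Egfr and Erbb2 to Erbb4, the phosphatases Dusp4, Dusp5 and Dusp6 and the transcription factors Etv1, Etv4 and Etv5. Of 53 such symbols, 52 had a probe set naming that gene alone, out of 19938 genes measured in this way, and Areg (amphiregulin) did not. Each gene was read from its brightest probe set over all arrays, which left a second probe set of Etv1, Etv5 and Spred2 to one side.

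The study asked which genes depend on BMI-1, a Polycomb protein that represses transcription, in neural stem/progenitor cells. Neurospheres, floating spheres grown from such cells, were derived from the wall of the lateral ventricle of outbred CD1 mice aged 4 to 6 weeks. One group was transduced with the pCMMP-Bmi1 retroviral vector and the other with the empty vector, and both were sorted on eGFP, which the vectors carry, before RNA from each sample was hybridized to an Affymetrix Mouse Gene ST array (n = 3 arrays per group). All neurospheres of both groups were grown in medium with insulin and with EGF and FGF, both at 20 µg/mL as the labels give it, and at clonal density of 2000 cells per well, so both growth factors were present in every sample.

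EGF and its relatives bind receptors of the ErbB family, and secreted FGFs bind the FGF receptors. Both kinds of receptor are tyrosine kinases that load RAS with GTP through adaptor proteins and start the RAF, MEK and ERK kinase cascade, and together EGF and FGF2 keep neural stem/progenitor cells dividing in culture. Active ERK also turns on its own brakes: Sprouty and Spred proteins restrain the pathway at the level of RAS and RAF, DUSP phosphatases remove the activating phosphates from ERK, and the PEA3 group of ETS factors (Etv1, Etv4 and Etv5) carries the signal to target genes.

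The labels and the targeted gene were examined first. In all 6 arrays the labels' source field contradicts the rest by giving the other group's name, whereas titles, transduction and genotype fields name the groups used here. Bmi1 (probe set 10469514) read 9.18, 8.36 and 8.42 on the arrays labelled Bmi1 overexpression and 7.70, 8.40 and 8.31 on those labelled empty vector, in log2 units. Bmi1 overexpression replicates 2 and 3 thus lay within the range of the empty vector arrays or just above it, the groups overlapped, and limma gave a log2 difference of 0.52 with an adjusted p of 0.38, which is not past the threshold. For the arrays the paper's text names a FLAG-tagged Bmi1, while the labels give Bmi1 with no tag. Every direction below rests on the titles of the arrays, and whether the Bmi1 probe set covers sequence that the vector encodes was not tested. Array medians lay between 4.37 and 4.45, and the correlation of a pair of arrays across probe sets was 0.991 to 0.993 inside a group and 0.985 to 0.987 across groups. The design text calls the samples of a group independent cultures and names no separate mice, so each p-value reflects only how far these cultures spread, which may be technical. In bulk RNA such as this, fewer cells of a type and less RNA per cell cannot be told apart.

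Neurospheres overexpressing Bmi1 had less mRNA of 6 feedback and target genes than empty vector neurospheres, while most ligands and receptors did not pass the test. Of the 13 Sprouty, Spred, DUSP and PEA3 genes, 6 fell (Dusp4, Spry4, Dusp6, Etv5, Spry1 and Etv4) and the other 7 did not pass, with a median log2 difference of -0.39 and a range of -1.03 to -0.08. Of the 39 ligands and receptors, 1 rose (Tgfa) and 4 fell (Fgf14, Ereg, Fgf12 and Fgfr1), with a median of 0.04. Each difference is the mean of the Bmi1 overexpression arrays minus that of the empty vector arrays, in the log2 units of the deposited values, and a gene rose or fell where limma's p-value, adjusted by Benjamini-Hochberg over all 35557 probe sets, was under 0.05.

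Over all 52 genes, 10 fell (19.2%) and 1 rose (1.92%). Across all probe sets, 3.46% fell and 2.23% rose, and with a single probe set per named gene the shares were 4.37% and 2.98%. The median difference was -0.05 for the 52 genes and 0.01 for all 19938, and 55.8% of the 52 lay below 0 against 46.9% of all genes. All 3 Bmi1 overexpression arrays lay below all 3 empty vector arrays in 17 of the 52 genes, and above them in 7, beside backgrounds of 15.9% and 15.3% of all genes. In the feedback and target genes alone, 10 of 13 had non-overlapping groups with Bmi1 overexpression lower and 0 with it higher. Among ligands and receptors the counts were 7 and 7 of 39. No test was run on these lists, which were chosen with results of these arrays known.

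**Figure D1:**
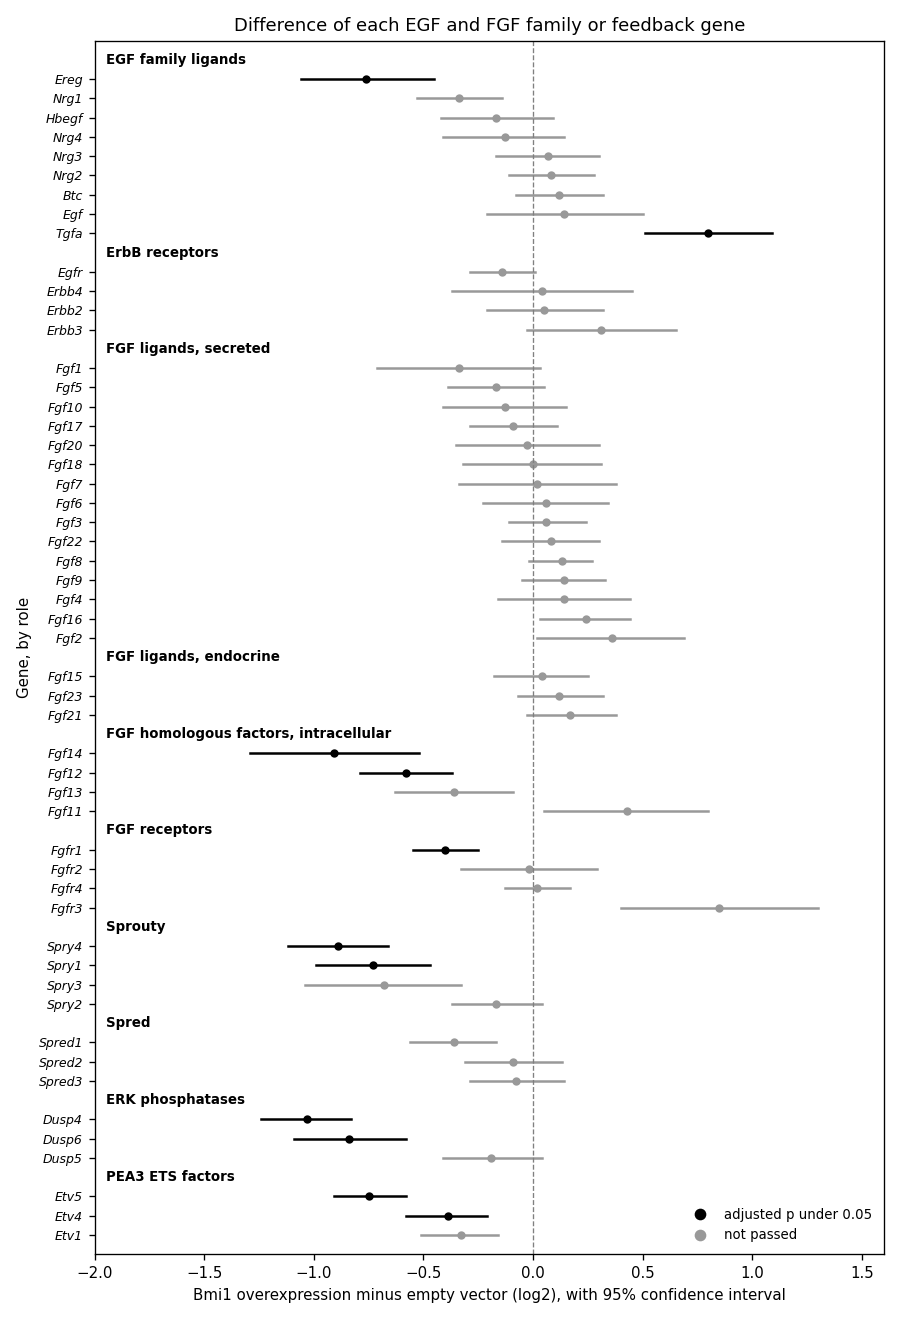
Log2 difference (Bmi1 overexpression minus empty vector, horizontal axis) of each of the 52 genes, grouped by role (vertical axis). Points are limma estimates from 3 arrays per group, lines their 95% confidence intervals, black where the adjusted p was under 0.05 and grey where it was not. All 13 genes of the bottom 4 groups (Sprouty, Spred, ERK phosphatases and PEA3 ETS factors) lie left of 0, down to -1.03 for Dusp4, whereas ligands and receptors lie on both sides.

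The ERK phosphatases held the largest difference of the 13. Dusp4 (probe set 10571312, chromosome 8), which encodes a phosphatase of the nucleus that inactivates ERK and other MAP kinases, read 5.89, 5.79 and 5.98 with Bmi1 overexpression and 6.91, 6.84 and 7.01 with the empty vector. Its highest Bmi1 overexpression array lay 0.86 below its lowest empty vector array. Dusp4 fell by 1.03 on the log2 scale, 2.05-fold lower (95% confidence interval -1.24 to -0.83, adjusted p = 0.0019). Dusp6 (probe set 10366043, chromosome 10), which encodes the cytoplasmic phosphatase specific for ERK and is a standard readout of FGF signaling, read 10.40, 10.31 and 10.06 with Bmi1 overexpression and 11.10, 11.02 and 11.17 with the empty vector. The groups stood 0.62 apart, with Bmi1 overexpression replicate 3 the lowest of all arrays. The difference of -0.84 (SE 0.11), 1.79-fold lower, had an adjusted p of 0.0082. Dusp5, a nuclear phosphatase of ERK, averaged 6.20 ± 0.06 with Bmi1 overexpression and 6.38 ± 0.14 with the empty vector (SD, n = 3 each). Its groups overlapped, and the difference of -0.19 did not pass (adjusted p = 0.34).

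Among the Sprouty genes, 2 of 4 fell. Spry4 (probe set 10458555), an inhibitor of receptor tyrosine kinase signaling upstream of ERK, read 8.57, 8.69 and 8.47 with Bmi1 overexpression and 9.42, 9.39 and 9.60 with the empty vector. Every Bmi1 overexpression array lay at least 0.69 below the empty vector arrays, and the gene was 1.85-fold lower (log2 difference -0.89, adjusted p = 0.0047). Spry1 (probe set 10491721, chromosome 3), a second inhibitor of this family, read 8.03, 8.12 and 7.77 with Bmi1 overexpression and 8.77, 8.72 and 8.62 with the empty vector. The groups did not overlap, Bmi1 overexpression replicate 3 was the lowest, and the difference was -0.73 (adjusted p = 0.015). Spry2, an inhibitor of the same family read at 9.87 ± 0.09 with Bmi1 overexpression and 10.04 ± 0.09 with the empty vector, differed by -0.17 (95% confidence interval -0.37 to 0.04) and did not pass. Spry3 was dim, at 2.66, 3.02 and 2.99 with Bmi1 overexpression and 3.77, 3.34 and 3.60 with the empty vector. It lay just outside the threshold, at -0.68 with an adjusted p of 0.053.

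The Spred genes encode membrane proteins that bind RAS and RAF regulators, and 0 of 3 passed. Spred1 read 8.96, 9.09 and 8.87 with Bmi1 overexpression and 9.38, 9.34 and 9.29 with the empty vector, without overlap, and its difference of -0.36 had an adjusted p of 0.057. Spred2 differed by -0.09 (adjusted p = 0.67) on its brightest probe set and by -0.36 (adjusted p = 0.051) on its other one, where the groups did not overlap. Spred3 differed by -0.08 (adjusted p = 0.71).

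Of the PEA3 factors, 2 of 3 fell and all 3 had groups that did not overlap. Etv5 (probe set 10363901, gene on chromosome 16) read 9.65, 9.61 and 9.63 with Bmi1 overexpression and 10.30, 10.45 and 10.38 with the empty vector. The spread within a group was at most 0.07 (SD), and the gene was 1.68-fold lower (log2 difference -0.75, adjusted p = 0.0028). Etv4 read 7.21, 7.24 and 7.25 with Bmi1 overexpression and 7.58, 7.56 and 7.74 with the empty vector. The difference of -0.39, with a gap of 0.30 between the groups, had an adjusted p of 0.037. Etv1 lay just outside, at -0.33 with an adjusted p of 0.052.

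Probe sets of this array are numbered roughly in genome order, since for 96.7% of 21695 probe sets at least 10 of the 20 nearest in number name genes of the same chromosome. Of the 52 genes' probe sets, those of Etv5, Etv1, Spry3 and Fgf14 have fewer than 10 such neighbours. All 20 neighbours of the Etv5 set name genes on chromosome 10, and 18 of 20 neighbours of the Etv1 set (10406934) name genes on chromosome 13, whereas the genes lie on chromosomes 16 and 12. For Spry3, on chromosome X, 1 of 20 neighbours names a gene of that chromosome. For Fgf14, on chromosome 14, 9 of 20 do and 11 name genes of chromosome 15, the next in order. The Fgf14 set is thus numbered where these chromosomes meet and does not depart from genome order. What these probe sets measure besides the named gene was not tested. The other Etv5 probe set (10438626) has 19 of 20 neighbours on chromosome 16. It read 9.21, 9.29 and 9.13 with Bmi1 overexpression and 10.01, 10.01 and 10.02 with the empty vector, a difference of -0.80 (adjusted p = 0.0024). The fall of Etv5 was thus as large on the probe set that does follow the order. The other Etv1 probe set (10395457), with 20 of 20 neighbours on chromosome 12, differed by -0.24 (adjusted p = 0.25), where the groups were 0.04 apart.

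**Figure D2:**
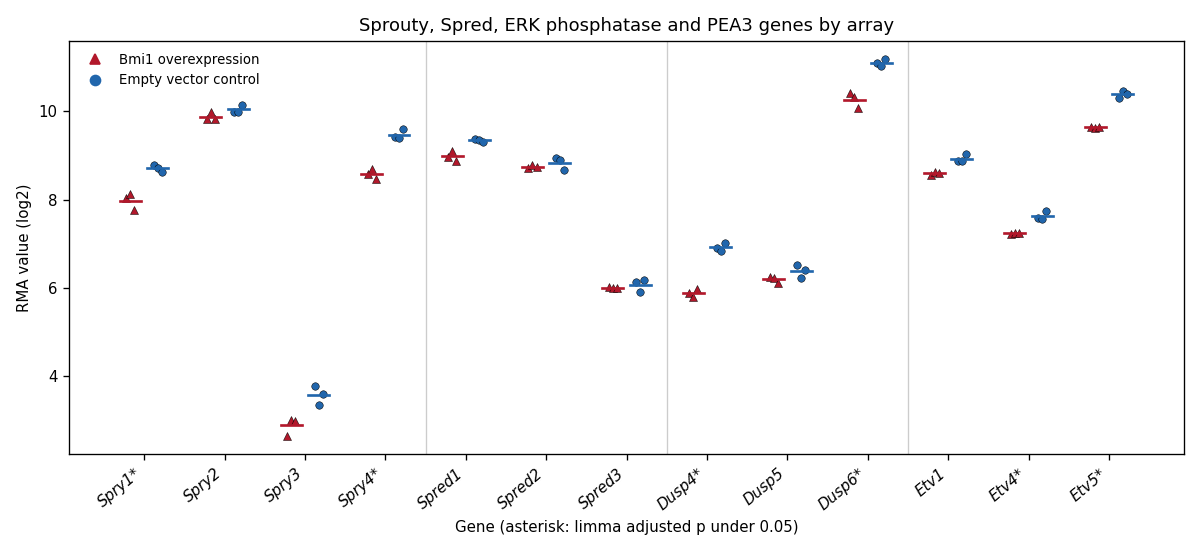
RMA value in log2 units (vertical axis) of each array for the 13 feedback and target genes (horizontal axis), with Bmi1 overexpression as red triangles left of empty vector as blue circles and a line at each mean (n = 3). Asterisks mark adjusted p under 0.05. In Dusp4, Dusp6, Spry1, Spry4, Etv4 and Etv5 the triangles all lie under the circles, by 0.30 (Etv4) to 0.86 (Dusp4), while in Spred2, Spred3 and Dusp5 the groups overlap. Levels of different genes come from different probes and are not comparable.

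The start regions of the members were searched for CGGAA, a form of the site that ETS factors bind. RefSeq promoter windows on GRCm38.p6, from 250 bases before to 50 after the start, were found for 36 of the 52 genes (46 windows) and for 6 of the 11 that rose or fell. The windows of 3 genes that fell and of Tgfa, which rose, are printed 5′ to 3′ on the gene's strand. Capitals mark CGGAA or its reverse complement TTCCG. The shorter ETS core GGAA without a C before it was not counted, so a window without capitals can still hold an ETS core. Dusp6 lies at chr10:99262981-99263280 (plus strand), Spry1 at chr3:37639697-37639996 (plus), Etv5 at chr16:22439521-22439820 (minus) and Tgfa at chr6:86194972-86195271 (plus).
Dusp6: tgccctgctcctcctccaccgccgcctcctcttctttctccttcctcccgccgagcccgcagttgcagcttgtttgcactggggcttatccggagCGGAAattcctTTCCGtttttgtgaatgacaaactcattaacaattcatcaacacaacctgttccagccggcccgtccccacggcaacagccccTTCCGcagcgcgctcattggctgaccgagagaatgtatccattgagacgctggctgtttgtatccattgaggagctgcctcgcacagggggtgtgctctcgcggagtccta
Spry1: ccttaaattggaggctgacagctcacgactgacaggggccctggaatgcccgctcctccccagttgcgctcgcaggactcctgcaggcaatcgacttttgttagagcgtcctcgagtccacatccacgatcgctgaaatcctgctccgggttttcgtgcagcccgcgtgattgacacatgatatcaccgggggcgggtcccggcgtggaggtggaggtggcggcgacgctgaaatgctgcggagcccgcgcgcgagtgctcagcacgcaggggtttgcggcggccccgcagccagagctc
Etv5: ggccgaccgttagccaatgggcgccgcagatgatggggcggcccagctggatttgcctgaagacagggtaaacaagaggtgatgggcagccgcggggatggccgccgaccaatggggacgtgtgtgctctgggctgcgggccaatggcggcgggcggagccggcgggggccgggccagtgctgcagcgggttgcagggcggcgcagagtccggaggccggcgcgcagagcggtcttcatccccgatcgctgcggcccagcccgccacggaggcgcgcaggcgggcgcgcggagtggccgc
Tgfa: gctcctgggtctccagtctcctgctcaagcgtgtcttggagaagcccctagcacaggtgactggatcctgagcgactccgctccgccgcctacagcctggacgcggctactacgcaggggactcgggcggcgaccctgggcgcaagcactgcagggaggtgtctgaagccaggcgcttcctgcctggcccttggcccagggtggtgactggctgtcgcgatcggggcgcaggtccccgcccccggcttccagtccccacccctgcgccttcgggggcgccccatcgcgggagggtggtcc
The Dusp6 window held 3 matches of CGGAA or TTCCG and those of Spry1, Etv5 and Tgfa held 0, while each of 3 Fgf12 windows held 1. Over all members, 15 of 46 windows (32.6%) held at least 1 on either strand, against 29.9% of all 32851 windows. CCAAT or its reverse complement ATTGG occurred 3 times in the Etv5 window, each as CCAAT. In the Dusp6 and Spry1 windows it occurred 1 time each, as ATTGG. On either strand it was in 28.3% of member windows against 37.4% of all. The cAMP response element TGACGTCA was in 0 member windows and 1.79% of all, and the AP-1 letters TGANTCA in 2 member windows (4.35%) and 7.81% of all. Member windows held a median of 18 CpG dinucleotides, against 7 over all windows, and those printed held 19 (Dusp6), 29 (Spry1), 37 (Etv5) and 24 (Tgfa). These are matches of letters in short windows, and binding was not measured.

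Among the EGF family ligands, 1 of 9 rose and 1 fell. Tgfa (probe set 10539692, chromosome 6), which encodes transforming growth factor alpha, a membrane-anchored ligand of EGFR, read 6.43, 6.52 and 6.17 with Bmi1 overexpression and 5.59, 5.43 and 5.71 with the empty vector. All Bmi1 overexpression arrays lay above all empty vector arrays, by 0.46 at the closest, and the gene was 1.74-fold higher (log2 difference 0.80, 95% confidence interval 0.51 to 1.09, adjusted p = 0.016). Ereg (probe set 10523175, chromosome 5), which encodes epiregulin, a ligand of EGFR and ErbB4, read 3.87, 3.83 and 3.49 with Bmi1 overexpression and 4.61, 4.38 and 4.46 with the empty vector. Both groups were dim, they lay 0.51 apart, and the difference of -0.76 had an adjusted p of 0.022.

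The other EGF family ligands did not pass. Nrg1, which encodes neuregulin ligands of ErbB3 and ErbB4, read 4.42, 4.55 and 4.56 with Bmi1 overexpression and 4.96, 4.80 and 4.79 with the empty vector. Its groups did not overlap, and the difference of -0.34 had an adjusted p of 0.073. Hbegf, which encodes heparin-binding EGF-like growth factor, differed by -0.17 (adjusted p = 0.45). Egf itself, the factor supplied in the medium, was dim at 3.69 ± 0.25 with Bmi1 overexpression and 3.55 ± 0.14 with the empty vector (SD, n = 3 each). Its groups overlapped, with an adjusted p of 0.67. Betacellulin (Btc) and the neuregulin genes Nrg2, Nrg3 and Nrg4 differed by -0.13 to 0.12.

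None of the 4 ErbB receptors passed the test in limma, and none had an unadjusted p under 0.05 from limma. Egfr, the receptor for EGF, TGF-alpha and epiregulin, read 9.95, 9.97 and 9.96 with Bmi1 overexpression and 10.07, 10.14 and 10.09 with the empty vector. Those groups stood 0.09 apart, and the difference of -0.14 (95% confidence interval -0.29 to 0.01) had an adjusted p of 0.29. Erbb2, the partner receptor without a ligand of its own, differed by 0.05 (95% confidence interval -0.21 to 0.32). Erbb3, a neuregulin receptor with little kinase activity, was dim and differed by 0.31 (adjusted p = 0.3), and Erbb4, a neuregulin receptor with an active kinase, by 0.04 (95% confidence interval -0.37 to 0.45).

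Of the 4 FGF receptors, 1 fell and 0 rose. Fgfr1 (probe set 10570982, chromosome 8), one of the receptors for FGF2, read 8.47, 8.51 and 8.51 with Bmi1 overexpression and 8.92, 8.92 and 8.85 with the empty vector. The groups lay 0.34 apart with a spread of at most 0.04 (SD) in each, and Fgfr1 was 1.32-fold lower (log2 difference -0.40, adjusted p = 0.018). Fgfr3, a receptor that astroglial and stem cells of the brain also express, read 8.86, 8.97 and 9.54 with Bmi1 overexpression and 8.18, 8.21 and 8.43 with the empty vector. Its groups lay 0.43 apart with Bmi1 overexpression higher, replicate 3 of that group stood above the others, and the difference of 0.85 (95% confidence interval 0.40 to 1.30) just missed the threshold, with an adjusted p of 0.057. Fgfr2 and Fgfr4 differed by -0.02 and 0.02, with adjusted p of 0.94 and 0.89.

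Of the secreted FGF ligands, 0 of 15 passed in limma, with differences of -0.34 (Fgf1) to 0.36 (Fgf2). Fgf2, the FGF commonly supplied to neurospheres, read 4.70, 4.36 and 4.86 with Bmi1 overexpression and 4.33, 4.34 and 4.18 with the empty vector. Its groups were 0.01 apart, and the adjusted p from limma was 0.23. Fgf16, the only other secreted ligand past 0.05 before adjustment, differed by 0.24 (adjusted p = 0.19 from limma). In 11 of these 15 genes the mean over all arrays was under 5. The endocrine ligands Fgf15, Fgf21 and Fgf23, which act at a distance through Klotho co-receptors, differed by 0.04 to 0.17, and 0 of 3 passed in limma, before or after adjustment.

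The FGF homologous factors are intracellular relatives that bind voltage-gated sodium channels and are not known as ligands secreted for FGF receptors, and 2 of 4 fell. Fgf12 (probe set 10438801, chromosome 16) read 6.05, 5.82 and 5.98 with Bmi1 overexpression and 6.45, 6.55 and 6.59 with the empty vector. The groups lay 0.40 apart, and the difference was -0.58 (adjusted p = 0.015). Fgf14 (probe set 10422585, chromosome 14) read 4.39, 4.80 and 4.42 with Bmi1 overexpression and 5.69, 5.24 and 5.41 with the empty vector. It was 1.87-fold lower (log2 difference -0.91, adjusted p = 0.027), with 0.44 between the groups, on a probe set numbered where genes of chromosomes 14 and 15 meet. Fgf13 (-0.36, adjusted p = 0.14) and Fgf11 (0.43, adjusted p = 0.2) did not pass, and their groups did not overlap, Fgf13 being lower and Fgf11 higher with Bmi1 overexpression.

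**Figure D3:**
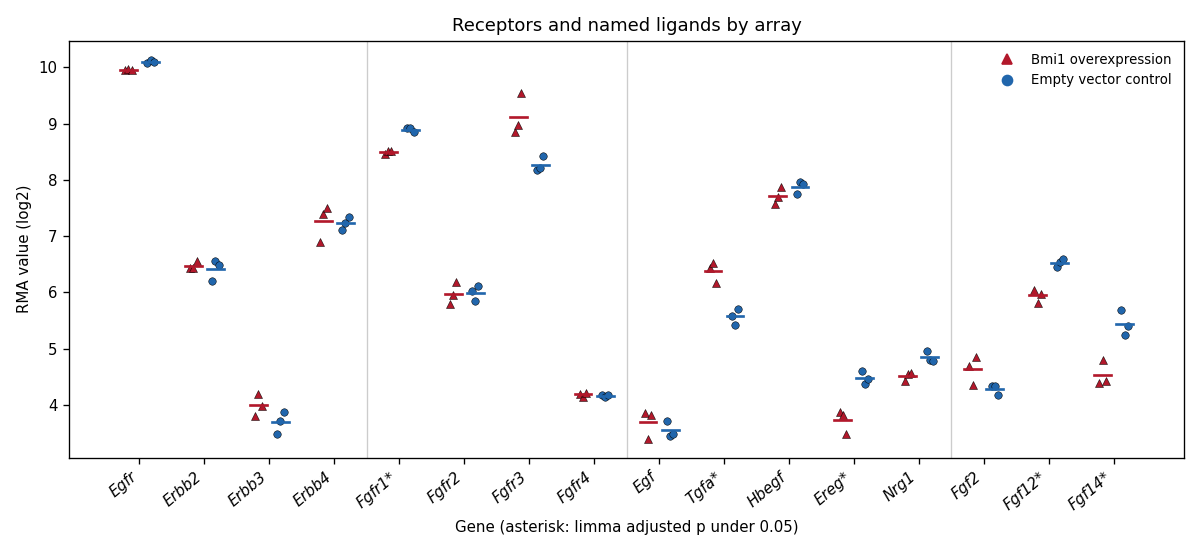
RMA value in log2 units (vertical axis) of each array for the ErbB and FGF receptors and 8 ligand genes (horizontal axis), with Bmi1 overexpression as red triangles left of empty vector as blue circles and a line at each mean (n = 3). Asterisks mark adjusted p under 0.05. Tgfa is higher with Bmi1 overexpression (difference 0.80), Fgfr1, Ereg, Fgf12 and Fgf14 are lower, and Fgfr3 lies 0.85 higher without passing the test. Levels of different genes come from different probes and are not comparable.

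Dim probe sets make up much of the group. The mean over all arrays was under 5 in 25 of the 52 genes, and 23 of these 25 did not pass. For such genes a low reading cannot separate a silent gene from a weakly measured one. With 3 arrays a group, precision is limited throughout.

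Calls differed in how often they passed with 1 array left out. Such fits have fewer arrays, and over all probe sets 642 to 820 fell in them, against 1231 with all arrays. Dusp4, Etv5, Spry4 and Dusp6 passed in all 6 fits that left out 1 array, with adjusted p of 0.0091 to 0.013 for Dusp4 and 0.02 to 0.041 for Dusp6. Fgf12 passed in 3 of 6, Spry1, Tgfa and Ereg in 2 of 6 and Fgf14 in 1. Their highest adjusted p came without Bmi1 overexpression replicate 1 for Tgfa (0.067) and Fgf14 (0.095), without empty vector replicate 2 for Spry1 (0.064) and Fgf12 (0.066) and without empty vector replicate 3 for Ereg (0.08). Fgfr1 and Etv4 passed in 0 of 6 (0.057 to 0.079 for Fgfr1 and 0.084 to 0.12 for Etv4). The Fgfr1 difference stayed at -0.42 to -0.38 whichever array was left out. Fgfr3 passed in 1, without Bmi1 overexpression replicate 3, where its adjusted p was 0.049. The direction of the 13 feedback and target genes, all below 0, was the same in each of these fits. In 10 of the 13 the groups do not overlap, so leaving out an array could not turn their sign.

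**Figure D4:**
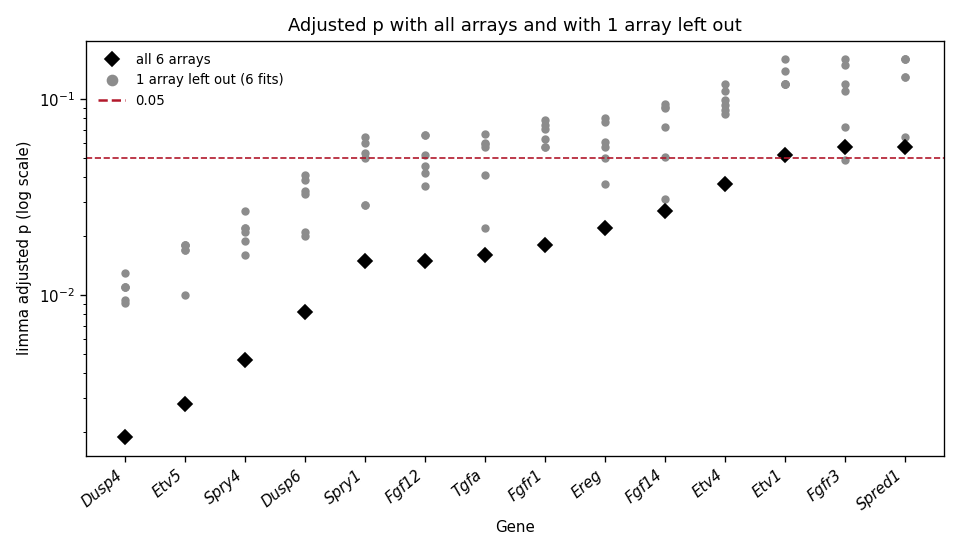
Adjusted p from limma (vertical axis, log scale) of the named genes under 0.06 (horizontal axis), with all 6 arrays as black diamonds and with 1 array left out as grey circles. The dashed line is at 0.05. Every circle of Dusp4, Etv5, Spry4 and Dusp6 lies under the line, the highest at 0.041 for Dusp6, while those of Fgfr1 and Etv4 all lie above it.

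Further genes of the pathway were read from lists of 95 symbols, of which 89 were measured. The others are not analysed here. Beside these lists, 4.37% of all named genes fell and 2.98% rose. In the RAS-ERK cascade and its adaptors, 7 of 38 measured genes fell (18.4%) and 1 rose (2.63%), with a median difference of -0.03. Map2k1 (chromosome 9), which encodes MEK1, the kinase directly above ERK, read 9.07, 9.04 and 9.09 with Bmi1 overexpression and 10.10, 10.10 and 10.03 with the empty vector. It was 2.01-fold lower, with 0.94 between the groups (log2 difference -1.01, adjusted p = 8.3e-04). Shc1 and Shc4, adaptors that link receptors to GRB2, fell by 0.64 and 0.49 (adjusted p = 0.011 and 0.019), and Braf, a RAF kinase, fell by 0.75 (adjusted p = 0.022). Mras, a RAS relative, rose by 0.98 (adjusted p = 0.031).

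Among other MAP kinase phosphatases, 2 of 7 fell (28.6%) and 0 rose, against 4.37% and 2.98% of all named genes. Dusp7, a cytoplasmic phosphatase of ERK, read 8.02, 8.19 and 7.73 with Bmi1 overexpression and 9.58, 9.41 and 9.46 with the empty vector. The groups lay 1.23 apart and Dusp7 was 2.84-fold lower (log2 difference -1.51, adjusted p = 0.0023). Dusp1, an immediate early phosphatase of several MAP kinases, fell by 0.65 (adjusted p = 0.0053). The other 5 did not pass, and the median of the list was 0.20.

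Of 20 genes listed as responding to ERK outside the Sprouty, Spred, DUSP and PEA3 groups, 1 rose (5%) and 2 fell (10%). These shares stand beside 2.98% and 4.37% of all named genes, and the median of the list was -0.02. The list includes the factors Srf, Elk1, Elk3, Elk4, Ets1 and Ets2, and whether their mRNA responds to ERK in these cells was not tested. Ier3, an immediate early gene that ERK signaling turns on, read 5.85, 6.01 and 6.61 with Bmi1 overexpression and 4.24, 4.64 and 4.13 with the empty vector. The groups lay 1.20 apart and Ier3 was 3.53-fold higher (log2 difference 1.82, adjusted p = 0.0086). Elk3, an ETS factor that ERK phosphorylates, fell by 0.71 (adjusted p = 0.013) and Ccnd1, the cyclin that growth factors induce, by 0.44 (adjusted p = 0.02). The immediate early factors Egr1 and Fos differed by -0.04 and -0.13, with adjusted p of 0.85 and 0.58.

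Of 24 other modifiers of these receptors, 2 rose and 2 fell (8.33% each), with a median of 0.06. The shares of all named genes were 2.98% and 4.37%. Adam12, a metalloprotease that can release HB-EGF from the membrane, read 8.14, 8.14 and 7.97 with Bmi1 overexpression and 9.05, 9.29 and 9.13 with the empty vector. It was 2.1-fold lower, with 0.90 between the groups (adjusted p = 0.0024). Socs5, a suppressor of EGFR signaling, fell by 0.60 (adjusted p = 0.043). Flrt3, a membrane protein that promotes FGF signaling in Xenopus, rose by 0.52 (adjusted p = 0.016), and Il17rd, also named Sef, an inhibitor of FGF signaling, rose by 0.42 (adjusted p = 0.019). With 1 array left out, Map2k1, Shc1, Dusp7, Dusp1, Ier3 and Adam12 passed in all 6 fits, Elk3 in 5, Braf and Flrt3 in 2, Shc4, Ccnd1 and Socs5 in 1 and Il17rd in 0.

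**Figure D5:**
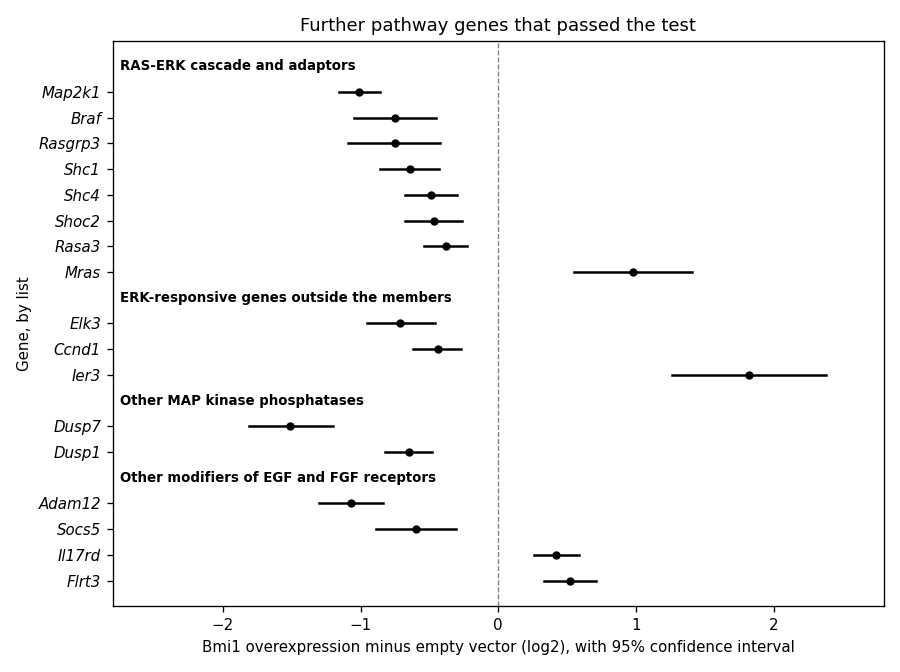
Log2 difference (Bmi1 overexpression minus empty vector, horizontal axis) of the genes outside the 52 that passed the test, grouped by list (vertical axis), with 95% confidence intervals (3 arrays per group). Dusp7 lies lowest at -1.51 and Ier3 highest at 1.82, and genes that did not pass are not drawn.

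Single markers of cell types also differed between the groups, while most markers did not pass. Of all named genes, 4.37% fell and 2.98% rose. Of 9 measured neural stem and progenitor markers, 2 rose (Prom1 by 1.58 and Hes5 by 1.05) and 0 fell, and the mean of the list lay at 9.06 to 9.22 with Bmi1 overexpression and 8.79 to 8.86 with the empty vector. Of 8 oligodendrocyte lineage markers, 1 rose (Pdgfra, by 1.00), with list means of 6.49 to 6.56 with Bmi1 overexpression and 6.25 to 6.35 with the empty vector. Of 6 astrocyte markers, 1 rose (Aqp4, by 1.06), with list means of 7.26 to 7.48 with Bmi1 overexpression and 7.10 to 7.25 with the empty vector. The other 5 did not pass and went both ways. Slc1a2, Aldh1l1 and Gfap differed by 0.55, 0.13 and 0.10, and Aldoc and S100b by -0.28 and -0.38. Of 6 neuroblast and neuron markers, Dcx rose by 0.55 and Map2 fell by 0.47, and the other 4 did not pass. Dcx was dim, at 2.90 to 3.58 over all arrays, while Map2 read 10.10 to 10.65. Of the stem and progenitor list, Nes, Sox2, Vim, Fabp7 and Slc1a3 read 9.59 or above on all arrays. Hes5 read 7.23 to 8.58, Msi1 and Pax6 6.42 to 6.97 and Prom1 3.75 to 5.77. Of 7 pericyte and fibroblast markers, Acta2 fell by 1.34 while the other 6 did not pass. Pdgfrb, Rgs5, Dcn and Lum were at or under 3.66 on all arrays, while Col3a1 read 4.67 to 4.91 and Col1a1 5.48 to 5.85. Of 6 microglial, 6 endothelial and 5 ependymal markers, 0 passed in limma, and Flt1 (endothelial) and Foxj1 (ependymal) were past 0.05 before adjustment. The microglial list mean lay at 3.32 to 3.36 with Bmi1 overexpression and 3.29 to 3.42 with the empty vector. The part of these marker differences in the results for ligands, receptors and feedback genes was not tested.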

How the data were processed

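RNA of 6 neurosphere samples, 3 transduced with the Bmi1 vector and 3 with the empty vector, had been hybridized to Affymetrix Mouse Gene ST arrays from 300 ng of total RNA. The deposited values are log2 expression per probe set, which the authors made by RMA with Affymetrix Expression Console (tools from the submitters' processing notes, with no version stated there). Groups followed titles, transduction and genotype fields.

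Gene names came from the platform annotation, which gave 1 gene for 21789 of 35557 and several for 1621, which were not named. The comparison used lmFit and eBayes of limma 3.58.1 under R 4.3.3, two-sided, without a filter and with p-values adjusted by Benjamini-Hochberg across all 35557 probe sets, and the scripts were tested on simulated data. With 3 arrays against 3, an exact two-sided permutation test cannot go below 0.1. The genes and lists were chosen with earlier results of these data known. Named were all called members, the factors in the medium with their main receptors and feedback genes, and up to 4 called genes of each pathway list with the smallest adjusted p. Spry3, Mras, Egr1, Fos and the FGF and EGF family ligands that did not pass, other than Egf, Fgf2, Hbegf and Nrg1, were named after their values were seen. Same-numbered arrays of the groups did not deviate together (correlations -0.032 to 0.000), so the numbers were not taken as pairs. Alternatives tried were the methods' t-test (also in Welch form), dropping probe sets whose mean was under 5 or under 6, a single or averaged probe set per gene, quantile normalization, median centring, another variance prior, array weights, a replicate block and each array left out. Promoter windows came from RefSeq (GRCm38.p6), and the array annotation gives no build. Figures were drawn with matplotlib 3.10.9. Python 3.11.15 and pandas 2.3.3 were used for tables. The study's other assays were not analysed here.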

Additional observations from a re-analysis of the deposited data

How the results depend on the processing

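With all arrays and no filter, 10 of the 52 genes fell and 1 rose. The count that fell was 6 with the methods' t-test after Benjamini-Hochberg adjustment (1 rose, Fgf8) and 1 at that test's own threshold (p under 0.001 with a mean difference of 1 or more) or with its Welch form (0 rose in both). It was 4 with the replicate number as a block, although the numbers did not pair the arrays, and with the block 1 rose, which was Fgfr3 in place of Tgfa; Dusp4, Spry4, Spry1 and Etv5 remained. Leaving out 1 array gave 4 to 7 that fell and 0 to 2 that rose. Over all 35557 probe sets, 1231 fell in the main fit. The count there was 885 with the adjusted t-test, 139 with the Welch form, 544 with the block and 642 to 820 with 1 array left out. The count that rose was 2, Tgfa and Fgfr3, with probe sets of a mean of at least 5 and with 1 probe set per named gene. It was also 2, the same genes, with the mean of a gene's probe sets and with a trended, robust prior. In these fits, in that order, 11 (of 27 genes tested), 14, 14 and 13 fell. Over all features tested, 1880 of 15149, 1400 of 19938, 1403 of 19938 and 1759 of 35557 fell, while 1544, 1139, 1154 and 1303 rose. Median centring gave 14 and 1, and moved the split over all probe sets to 1467 lower and 593 higher, against 1231 and 794 as deposited, and their median difference to -0.03 from 0.02. Some of these fits tested fewer probe sets or used fewer arrays, and the cause of the changes was not tested. The 13 Sprouty, Spred, DUSP and PEA3 genes all lay below 0 with median centring, quantile normalization, array weights, the mean of a gene's probe sets and each array left out. For the 10 whose groups do not overlap, array weights or a left-out array could not have turned the sign. The other probe sets of Etv1, Etv5 and Spred2, chosen after seeing the data, left 10 and 1.

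Signs turned for genes that did not pass in these fits: Erbb4 (-0.01 with median centring, -0.00 with array weights, -0.03 and -0.08 without Bmi1 overexpression replicates 2 and 3, -0.02 without empty vector replicate 1; leave-one-out range -0.08 to 0.23), Fgfr4 (-0.03 with median centring, -0.02 with quantile normalization), Fgfr2 (0.07 without Bmi1 overexpression replicate 1, 0.04 without empty vector replicate 3; range -0.13 to 0.07) and Erbb2 (-0.05 without empty vector replicate 1; range -0.05 to 0.12). With 1 array left out, the ranges of Nrg3 (-0.02 to 0.13), Fgf15 (-0.04 to 0.11), Fgf6, Fgf7, Fgf18 and Fgf20 also crossed 0. For dim genes the signal limits what can be seen.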
